A study of Mus musculus with 173 samples.

Results

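The 10 fatty acid oxidation enzymes described here are Cpt1a, Cpt2, Acadm, Acadl, Acadvl, Hadha, Hadhb, Echs1, Acaa2 and Etfa, taken by gene symbol and not by a limit on their values. All 10 were found among the 23307 gene rows of the series, and all 10 were among the 12007 genes that reached 1 TPM in at least 5% of libraries. TPM is a level corrected for transcript length and scaled to a common total per library, so levels can be ordered between genes within a library. Each library holds the RNA of a single cell from the dentate gyrus, the part of the hippocampus that keeps making neurons in adults. They come from C57BL/6 mice aged 8 to 12 weeks, with no treatment named. The first letter of the title sorts the 172 libraries into 26 of class N, 4 of class R and all the others of class C, and the labels do not say what the letters mean. The study's stated object was quiescent neural stem cells and the cells they give rise to.

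Mitochondrial beta-oxidation burns fatty acids for energy. Cpt1a, in the outer mitochondrial membrane, joins long-chain acyl groups to carnitine, the step at which entry is controlled, and Cpt2, in the inner membrane, moves them back to coenzyme A. The acyl-CoA dehydrogenases Acadvl, Acadl and Acadm then act on very long, long and medium chains, and the electron carrier protein of which Etfa is the alpha subunit takes up their electrons. Echs1 hydrates shorter chains, Acaa2 is a thiolase that cuts off acetyl-CoA, and Hadha and Hadhb are the 2 subunits of the trifunctional protein, which carries out the last steps on long chains. In the adult hippocampus this pathway is known as a fuel of quiescent neural stem cells, and Cpt1a is the member most studied there.

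The labels name no animal, so each class is treated as 1 sample and no p-value was computed. Values are compared as log2(TPM + 1), and 2 classes are called apart for a gene where their means differ by at least 1 on that scale. This scale understates differences of low genes. A level of at least 10 TPM is called high. A range after a share of libraries is its exact 95% interval (Clopper-Pearson), which holds the error of counting and not the spread between animals. Some shares are given without one. An exact 0 can be a failed estimate: Gapdh, a gene that every cell uses, was listed at 0 in 2 libraries. Genes reaching 1 TPM had medians of 3701 per library in C, 3565 in N and 3240.5 in R. The row of the cyan fluorescent protein eCFP averaged 9579 TPM for C, 147 for N and 34.2 for R. Most C libraries were led by stem cell or astrocyte markers, apart from 12 led by progenitor or neuroblast, 7 by oligodendrocyte lineage and 1 by vascular markers and 2 unnamed. N was mixed, with 9 libraries led by oligodendrocyte lineage markers, 9 by vascular markers (endothelial and mural lists), 4 by intermediate progenitor or neuroblast markers, 1 by stem cell or astrocyte markers and 3 unnamed. All 4 R libraries were high in the mature neuron list, with list means from 4.59 to 6.23. By the same rule, mature neuron markers led only 1 of the 4, and 3 were unnamed. Across the 4, the neuroblast list mean reached 6.13 and the astrocyte list mean 6.12. Cell type and class letter therefore move together, and their parts in the differences below cannot be told apart.

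Promoter sequence is shown for the enzymes because the nuclear receptor PPARA, a known activator of this pathway, binds DNA at paired copies of the letters AGGTCA. Windows from 250 bases before to 50 bases after the gene start were taken from RefSeq (GRCm38.p6) for 9 of the 10 enzymes. Acaa2 was left out before matching. The letters AGGTCA, read on either strand, were in 4 of these 9 windows and in 16.3% of all 32851 windows of that length. The 4 matches, each with up to 12 bases on either side in the direction of the gene, are shown with the match in capitals (TGACCT is AGGTCA on the other strand).
Acadm, chr3:153944875-153944893, minus strand: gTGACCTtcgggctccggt
Acadvl, chr11:70015498-70015527, minus strand: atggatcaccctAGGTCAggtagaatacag
Cpt1a, chr19:3323195-3323224, plus strand: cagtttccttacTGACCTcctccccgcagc
Echs1, chr7:140116487-140116516, minus strand: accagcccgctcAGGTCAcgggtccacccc
The match lay 249 bases before the gene start in Acadm, 87 in Acadvl, 94 in Cpt1a and 83 in Echs1. Adjoining copies of AGGTCA with 1 base between them were in 0 of the 9 windows and in 0.0396% of all windows. The letters CACGTG were in 0 of 9 and 7.15% of all, and CCAAT was in 2 of 9 (Etfa and Cpt1a) and 37.4% of all.

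Hadha and Hadhb lie head to head, and the stretch between their starts is shown because both subunits of 1 enzyme are read from it in opposite directions. It spans 272 bases at chr5:30154981-30155252 (GRCm38.p6, plus strand, RefSeq), with a GC content of 60.3%. Hadha starts to its left and runs leftward, and Hadhb starts to its right and runs rightward.
Hadha to Hadhb: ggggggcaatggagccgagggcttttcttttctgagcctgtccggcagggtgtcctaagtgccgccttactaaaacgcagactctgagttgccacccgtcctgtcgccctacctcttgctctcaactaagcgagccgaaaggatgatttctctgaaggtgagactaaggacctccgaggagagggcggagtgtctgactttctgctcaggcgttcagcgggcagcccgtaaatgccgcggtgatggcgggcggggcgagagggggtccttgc
None of the 3 letter strings searched occurs in it on either strand. Such a match or its absence describes these letters only.

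The enzymes were uneven between C libraries, and each was under 10 TPM in most of them. The share of C libraries reaching 1 TPM ran from 11.97% for Cpt1a to 78.9% for Echs1, and was also 74.6% for Hadhb, 65.5% for Acadm and 64.1% for Etfa. The carnitine enzymes were the lowest. Cpt1a was listed at 0 in 76.1% of C libraries and was high in 12 (8.45%, interval 4.44 to 14.3), with a highest value of 830 TPM. Cpt2 was listed at 0 in 80.99% and was high in 11 (7.75%, 3.93 to 13.4), with a highest value of 1678 TPM. Both enzymes had a median of 0. No C library was high in both, a count that says little at shares this small.

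Among the dehydrogenases, Acadm was the most often high, in 35.9% of C libraries (28.04 to 44.4), with a median of 2.02 TPM and a highest value of 2289 TPM. Acadl was high in 26.1% (19.1 to 34.1), from 0 through a median of 0.70 to 2891 TPM. Acadvl was high in 19.01% (12.9 to 26.4), from 0 through a median of 0.75 to 2915 TPM. The intervals of Acadm and Acadvl do not overlap, while that of Acadl overlaps both. Shares of different enzymes in C come from the same libraries, so overlap of their intervals does not test their order. Etfa, their electron acceptor, was high in 35.9% of C libraries, with a median of 2.25 TPM and a highest value of 3195 TPM.

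The later enzymes of the spiral included the 2 most often seen. Echs1 stood highest of the 10 in C, with a median of 5.74 TPM, a highest value of 3127 TPM and a high level in 43.7% of libraries (35.4 to 52.2). Hadhb came next, with a median of 3.77 TPM, a highest value of 3184 TPM and a share of 38.7% (30.7 to 47.3). Hadha, its partner subunit, had a median of 0.67 TPM, a highest value of 1438 TPM and a share of 26.1% (19.1 to 34.1). Acaa2 was listed at 0 in 77 C libraries, was high in 18.3% (12.3 to 25.7) and reached 2757 TPM. By share of libraries the order in C was thus Echs1, Hadhb, Acadm with Etfa, Acadl with Hadha, Acadvl, Acaa2, Cpt1a and Cpt2, and each neighbouring pair had overlapping intervals.

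**Figure D1:**
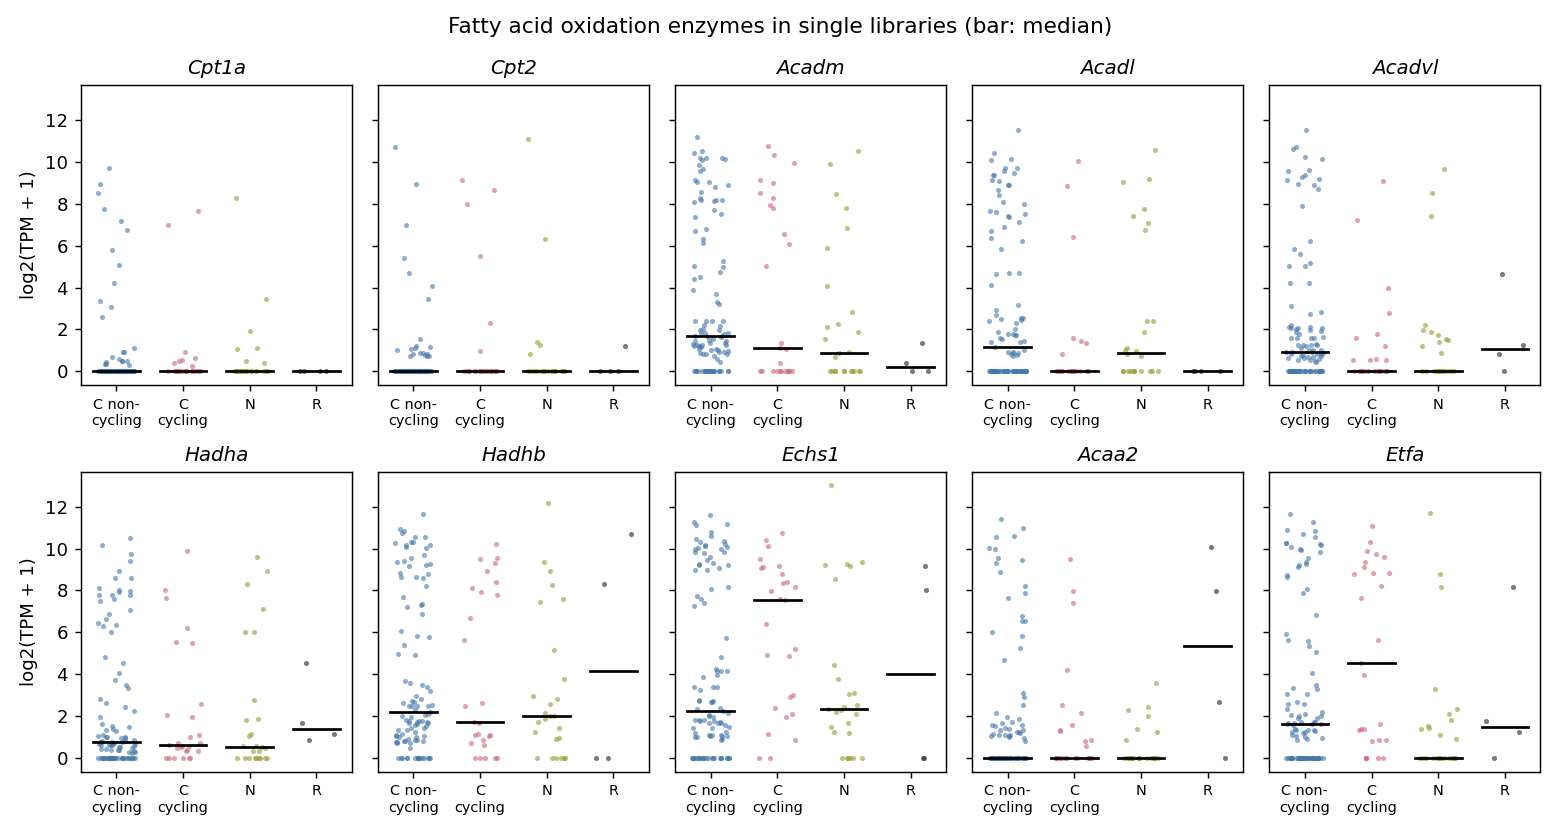
Level of each enzyme as log2(TPM + 1) (y axis) in each library (points), by class (x axis), with C split into non-cycling and 27 cycling libraries and 8 between them left out; the bar is the median. Most points of Cpt1a and Cpt2 lie at 0, while the cycling medians of Echs1 and Etfa (187.8 and 21.9 TPM) lie above the non-cycling ones (3.68 and 2.06 TPM).

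A C library had a median of 3 of the 10 enzymes at a high level, with a range from 0 to 7. In N the median was 1.5 with a range from 0 to 4. No library of any class was high in all 10. The enzymes varied largely apart from each other across the C libraries. Spearman's rho of the 45 pairs ran from -0.16 (Cpt1a with Cpt2) to 0.22 (Cpt2 with Acadl), with a median of 0.022, over points that share a library and its depth. Hadha and Hadhb had a rho of 0.082 in C, and 13 libraries were high in both. That is 35.1% of the 37 libraries high in Hadha, beside a Hadhb share of 38.7% in all C. It is 23.6% of the 55 libraries high in Hadhb, beside a Hadha share of 26.1% in all C. Etfa and its partner subunit Etfb had a rho of 0.037, and 28 libraries were high in both, of 51 high in Etfa and 65 in Etfb. Genes most like the mean of the 10 standardised enzyme levels were Fez1 (rho 0.40), Psma2 (0.35), Ggh (0.35), Golim4 (0.34) and Lgr4 (0.33), among 6203 candidates whose median was 0.069. Most like Cpt1a were Pdzd8 (0.37), Bola3 (0.34) and Ppa2 (0.31), where the median was 0.033. The mean enzyme level had a rho of 0.31 with the stem cell marker mean, 0.26 with the astrocyte marker mean and 0.19 with the number of genes seen. These are weak relations and are given as descriptions.

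Between C and N, Etfa and Acaa2 were the enzymes apart, both higher in C. Etfa had a median of 2.25 TPM in C and of 0 in N, where it was listed at 0 in 14 of 26 libraries. It was high in 51 C libraries (35.9%, 28.04 to 44.4) and in 3 of 26 N libraries (11.5%, 2.45 to 30.2), with overlapping intervals. Those 3 stood at 286, 442 and 3315 TPM, so the ranges of C and N overlapped over their whole length. The mean log2 level was 3.603 in C and 1.71 in N, a difference of 1.89, which is smaller than the SD between C libraries (3.95). On log2 of the mean TPM the difference was 0.74, since N6 alone, at 3315 TPM, lifts the N mean from 30.2 to 157 TPM.

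Acaa2 was low throughout N. It was listed at 0 in 19 of 26 N libraries, the highest N library had 11.1 TPM, and the mean was 1.01 TPM. In C, 26 libraries were high, at a median of 385 TPM among those 26, and the mean was 117.8 TPM. The mean log2 level was 1.94 in C and 0.53 in N, a difference of 1.40, with an SD between C libraries of 3.21. It was 0.88 with a pseudocount of 10 and 5.89 on log2 of mean TPM. No C library defines this difference alone, as the C mean without its highest library was 99.1 TPM.

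Of the 10 enzymes, 2 were thus higher in C by at least 1, where 9.98% of all 12007 genes were, and 0 were lower, where 4.19% of all genes were. The median difference of the 10 was 0.62, beside 0.17 over all genes. When libraries were rescaled by the median ratio of their genes, the all-gene median became 0.058 and the shares of all genes became 6.77% higher and 6.70% lower, and the enzyme counts stayed at 2 and 0. Just under the limit were Acadm (0.88), Echs1 (0.88) and Hadhb (0.71). Each of these was at least 1 among libraries with at least 3000 genes (18 of them N). There 5 enzymes and 10.9% of all genes were higher. Acadvl differed by 0.54, Cpt1a by 0.13 and Hadha by 0.072, while Cpt2 was at -0.15 and Acadl at -0.18. Of the 9 alternatives, the sign changed in 3 for Hadha and in 1 each for Acadl, Cpt1a, Echs1 and Hadhb, so these small differences carry no firm direction. Removing the filter is counted among the alternatives here and below, although it cannot change the difference of a single enzyme. Acadl was high in 26.1% of C and 26.9% of N libraries. Cpt1a was high in 8.45% of C libraries and in 1 of 26 N libraries (3.85%, 0.0973 to 19.6).

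The cell type markers that lead a library gave a finer view than the class letters. Acaa2 was high in 26 libraries led by stem cell or astrocyte markers (21.5% of these, 14.5 to 29.9). Outside these it was high in 1 of 10 vascular libraries (10%, 0.253 to 44.5), at 11.1 TPM. Among the 8 unnamed libraries it was high in 2 (25%, 3.19 to 75.5), which were R1 and R3. It was high in 0 of 16 libraries led by progenitor or neuroblast markers and in 0 of 16 led by oligodendrocyte lineage markers. For each 0 the exact upper limit is 20.6% (3 counts of the 16 would be 18.8%), which overlaps the stem cell or astrocyte interval. Etfa was high in 9 of the 16 progenitor or neuroblast libraries (56.2%, 29.9 to 80.2) and in 1 of the 16 oligodendrocyte lineage libraries (6.25%, 0.158 to 30.2), and these intervals overlap only at their ends. Hadhb showed the opposite order, with 9 of 16 oligodendrocyte lineage libraries high (56.2%, 29.9 to 80.2) against 3 of 16 progenitor or neuroblast libraries (18.8%, 4.05 to 45.6). Its intervals overlap. Acadl was high in 29.8% of stem cell or astrocyte libraries (21.8 to 38.7) and 12.5% of progenitor or neuroblast libraries (1.55 to 38.3), with overlapping intervals. Hadha and Cpt1a were high in 0 of the 10 vascular libraries, with an exact upper limit of 30.8% for each 0 (3 counts of the 10 would be 30%).

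**Figure D2:**
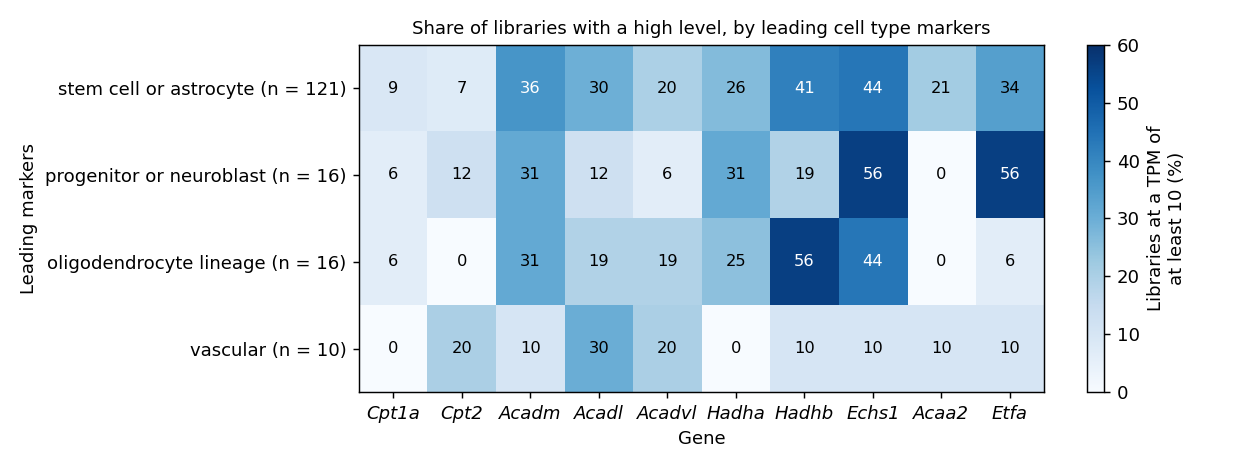
Percent of libraries at a TPM of at least 10 for each enzyme (x axis), by the cell type markers that lead the library (y axis, with the number of libraries); numbers in the cells are that percent. Acaa2 is at 0 in the progenitor or neuroblast and oligodendrocyte lineage rows, Etfa is highest in the progenitor or neuroblast row and Hadhb in the oligodendrocyte lineage row.

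Within C, cycling libraries were set against non-cycling ones, to see the enzymes on either side of the step from quiescence to division. A C library counted as cycling (27 libraries) where the mean of 17 S phase genes or of 21 G2 and mitosis genes was at least 3 on the log2 scale. It counted as non-cycling where both means were under 2, and the 8 between were left out, so that all other C libraries were non-cycling. None of the 10 enzymes is in either list. The score is a range and not a type: 4 C libraries lie within 0.5 of the upper limit and 14 within 0.5 of the lower. Top2a, a topoisomerase of dividing cells, was high in 81.5% of cycling and 0% of non-cycling libraries, and Mki67 in 62.96% and 2.80%. The cycling libraries also differed in cell type markers. The stem cell list mean was 4.82 in cycling and 6.49 in non-cycling libraries, the astrocyte list mean was 2.29 and 4.23, and Eomes, a transcription factor of intermediate progenitors, averaged 2.83 and 0.50. Progenitor or neuroblast markers led 9 of the 27 cycling libraries and 3 of the non-cycling ones. The median number of genes seen was 3938 in cycling and 3594 in non-cycling libraries. Keeping only C libraries led by stem cell or astrocyte markers, 15 cycling and 98 non-cycling, did not level these measures. Among those, the stem cell list mean was 5.70 in cycling and 6.79 in non-cycling libraries. The astrocyte list mean was 2.87 and 4.44, the intermediate progenitor list mean 2.24 and 1.06, and the median number of genes seen 4218 and 3587.5. Doublets were not called.

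The 10 enzymes did not shift as a group. Echs1 and Etfa were higher in cycling libraries by at least 1, where 15.8% of all genes were, and Acadl and Acadvl were lower, where 4.69% of all genes were. The median difference of the 10 was -0.019, beside 0.036 over all genes.

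Echs1 was high in 18 of 27 cycling libraries (66.7%, 46.04 to 83.5) and in 42 non-cycling libraries (39.3%, 29.95 to 49.2), with overlapping intervals. Its median was 187.8 TPM in cycling and 3.68 TPM in non-cycling libraries, with ranges of 0 to 1710 and 0 to 3127 TPM that overlapped. The mean log2 levels were 5.95 and 4.10, a difference of 1.85 against an SD between non-cycling libraries of 4.02. The mean TPM was almost equal, 325 and 324, and the high libraries stood lower in the cycling class, at a median of 331 TPM against 669 TPM. The difference was accordingly 0.0063 on log2 of mean TPM. It was 0.68 where cycling was defined by Mki67 or Top2a alone, and 2.58 among C libraries led by stem cell or astrocyte markers, where 11 of 15 cycling and 39 of 98 non-cycling libraries were high. Echs1 overlaps the polyamine oxidase gene Paox in the RefSeq annotation, and whether counting used strand is not given in the sources used here, so reads of the 2 genes may not be told apart. Paox was high in 2.11% of C libraries and in 0 of 27 cycling ones, and its rho with Echs1 in C was -0.026.

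Etfa was high in 15 of 27 cycling libraries (55.6%, 35.3 to 74.5) and in 31 non-cycling libraries (28.97%, 20.6 to 38.5), with overlapping intervals. Its median was 21.9 TPM in cycling and 2.06 TPM in non-cycling libraries, with ranges of 0 to 2168 and 0 to 3195 TPM. The mean log2 levels were 4.96 and 3.15, a difference of 1.81. On log2 of mean TPM it was 0.47. Among C libraries led by stem cell or astrocyte markers the difference was 0.96. There 8 of 15 cycling (53.3%) and 29 of 98 non-cycling libraries (29.6%) were high. Whether cell type has a part in the difference was not tested. Of the 9 cycling libraries led by progenitor or neuroblast markers, 6 were high, at a median of 446 TPM over all 9.

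Acadl was high in 3 of 27 cycling libraries (11.1%, 2.35 to 29.2) and in 33 non-cycling libraries (30.8%, 22.3 to 40.5), with overlapping intervals. It was listed at 0 in 20 of the 27 cycling libraries (74.1%) and in 45 non-cycling ones (42.1%), with medians of 0 and 1.24 TPM and highest values of 1046 and 2891 TPM. The mean log2 levels were 1.13 and 2.93, a difference of -1.80. Among C libraries led by stem cell or astrocyte markers the difference was -2.24, with 1 of 15 cycling and 33 of 98 non-cycling libraries high, and with a pseudocount of 10 it was -0.95.

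Acadvl was high in 3 of 27 cycling libraries (11.1%, 2.35 to 29.2) and in 23 non-cycling libraries (21.5%, 14.1 to 30.5), and these intervals overlap widely. Its medians were 0 and 0.90 TPM, and the highest values were 545 and 2915 TPM. The mean log2 levels were 1.11 and 2.33, a difference of -1.22, which was -1.71 among libraries led by stem cell or astrocyte markers and -0.68 with a pseudocount of 10. Acadm, the medium-chain enzyme, had no settled direction. It was high in 44.4% of cycling (25.5 to 64.7) and 35.5% of non-cycling libraries (26.5 to 45.4), but it reached 1 TPM in 55.6% and 69.2% and its medians were 1.15 and 2.21 TPM. Its difference was 0.38 and was negative under 5 of 13 alternatives, at -0.081 among libraries led by stem cell or astrocyte markers and -0.37 where cycling was defined by Mki67 or Top2a.

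The other 5 enzymes were less than 1 apart. Cpt1a was high in 2 of 27 cycling and 9 non-cycling libraries, with highest values of 202 and 830 TPM and a difference of -0.085. The shares were 7.41% (0.910 to 24.3) and 8.41% (3.92 to 15.4), and intervals this wide leave the size of any difference in Cpt1a unresolved. Cpt2 was high in 4 of 27 cycling (14.8%) and 7 non-cycling libraries (6.54%), with a difference of 0.74. Hadhb (0.046), Hadha (-0.23) and Acaa2 (-0.44) had overlapping intervals throughout. Of the 13 alternatives, the sign changed in 6 for Cpt1a, 6 for Hadhb, 2 for Hadha, 3 for Acaa2 and 0 for Cpt2. Leaving out the 16 C libraries that were high in the markers of another cell type left the counts at 2 higher and 2 lower.

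**Figure D3:**
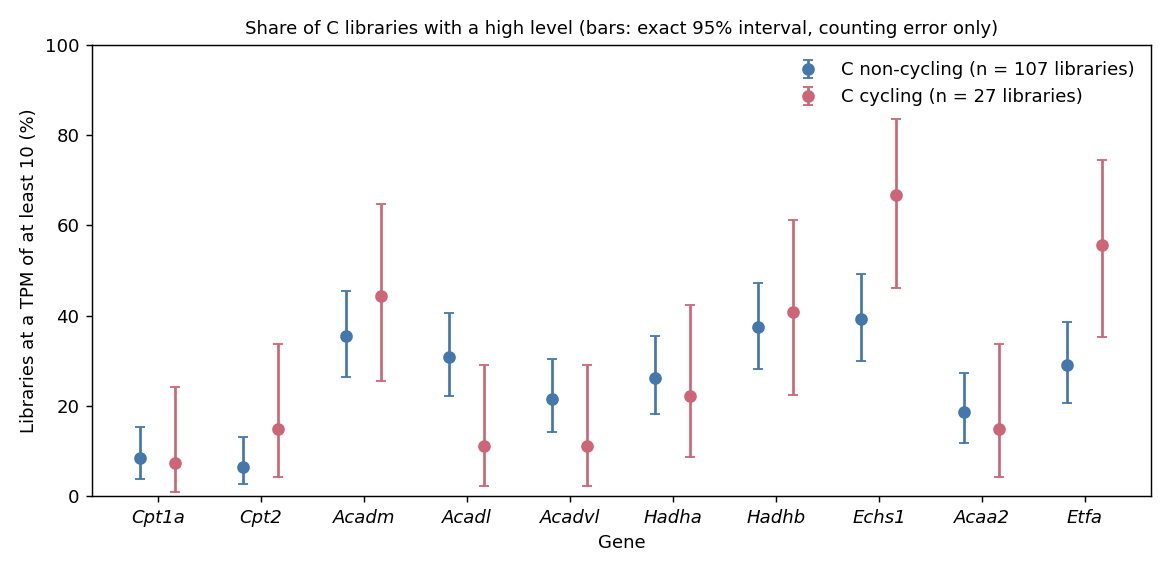
Percent of C libraries at a TPM of at least 10 (y axis) for each enzyme (x axis), in non-cycling (blue) and 27 cycling (red) libraries; bars are exact 95% intervals for counting error only. Echs1 (66.7% against 39.3%) and Etfa (55.6% against 28.97%) stand higher in cycling libraries, and Acadl (11.1% against 30.8%) stands lower. For each of these enzymes the intervals overlap.

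The genes around these enzymes were described from 5 lists of 58 genes, of which 45 passed the filter. Between C and N, 8 of the 45 were higher in C and 1 was lower, where 9.98% and 4.19% of all genes were. Thrsp, a regulator of lipid synthesis known to mark quiescent stem cells of this region, was furthest, with medians of 1807 and 10.1 TPM and a difference of 5.42. Acsl3, which activates long-chain fatty acids, had medians of 104.3 and 2.90 TPM and a difference of 2.87. Slc27a1, a fatty acid transporter, differed by 2.10, with medians of 7.37 and 1.03 TPM. Cpt1c, the brain form of the carnitine enzyme, was the gene lower in C, at -1.40, and was high in 12.0% of C and 30.8% of N libraries. By list, 3 of 10 activation and shuttle genes, 2 of 14 other mitochondrial genes, 2 of 10 peroxisomal genes, 0 of 4 ketone body genes and 1 of 7 regulators were higher in C.

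In cycling C libraries, 2 of the 45 were higher and 4 were lower, where 15.8% and 4.69% of all genes were. Uptake and activation genes were 3 of the 4 lower ones, and Thrsp was the other. Acsl3 was high in 44.4% of cycling (25.5 to 64.7) and 75.7% of non-cycling libraries (66.5 to 83.5), with medians of 4.43 and 123.2 TPM and a difference of -2.38. Acsl6, which also activates long chains, differed by -1.98 and Slc27a1 by -1.85. Oxct1, which lets a cell burn ketone bodies, was high in 74.1% of cycling (53.7 to 88.9) and 40.2% of non-cycling libraries (30.8 to 50.1), with medians of 89.02 and 1.70 TPM and a difference of 2.09. Acat1, the thiolase that follows it, differed by 1.16. Ppara, the receptor that switches on this pathway, was added after its values were seen. It reached 1 TPM in 15 non-cycling libraries (14.02%, 8.06 to 22.1) and in 0 of 27 cycling ones. For that 0 the exact upper limit is 12.8% (3 counts of the 27 would be 11.1%), so the intervals overlap.

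**Figure D4:**
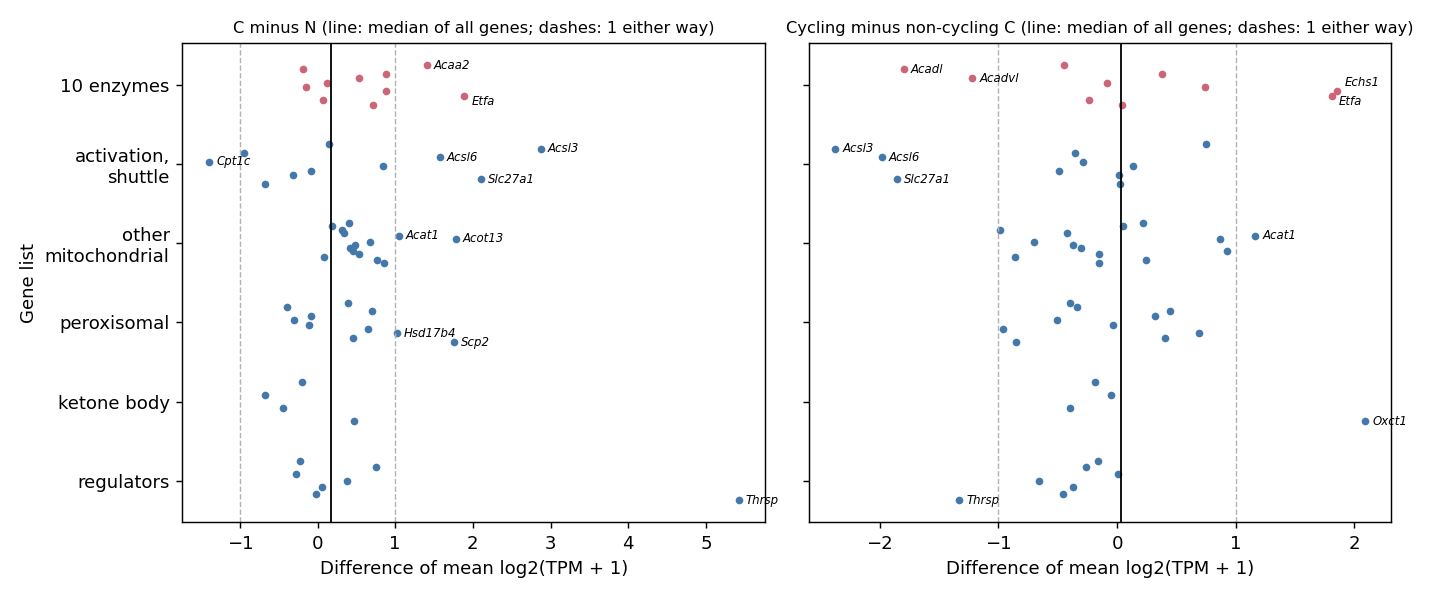
Difference of mean log2(TPM + 1) (x axis) for the 10 enzymes (red) and the 45 related genes past the filter (blue), by list (y axis), for C minus N (left) and cycling minus non-cycling C (right); points are genes, dashes mark 1 either way and the solid line is the median of all genes. Genes past a dash are named, with Thrsp (5.42) furthest on the left and Oxct1 (2.09), Echs1 (1.85) and Etfa (1.81) furthest right on the right panel.

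The 4 R libraries differed widely among themselves. R3 had 6 of the 10 enzymes at a high level and R1 had 3, while R2 and R4 had 0. Hadhb stood at 1661, 0, 311 and 0 TPM in R1 to R4. Echs1 stood at 571, 0, 262 and 0 TPM, and Acaa2 at 1088, 0, 253 and 5.41 TPM. R1 and R3 were thus high and R2 and R4 at or near 0 for all of these. Etfa stood at 2.41, 1.35, 282 and 0 TPM, so that R3 alone was high. Acadl and Cpt1a were listed at 0 in all 4, Cpt2 was at 1.29 TPM in R1 and at 0 in the others, and Acadm did not pass 1.52 TPM.

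Against C, 3 of the 10 enzymes were at least 1 apart in R, where 42.9% of all genes were: Acaa2 was higher (difference 3.25), and Acadm (-3.01) and Acadl (-2.48) were lower. Against N, which shares the R libraries with that comparison, 3 were higher (Acaa2 at 4.66, Hadhb at 1.46 and Etfa at 1.07), where 23.8% of all genes were, and 2 were lower (Acadl at -2.66 and Acadm at -2.13), where 17.5% of all genes were. These counts are near the shares over all genes. Without R1 the Hadhb difference from N was -0.52, and without R3 the Etfa difference was -0.71, so 1 library sets the direction of each. Of the 45 related genes, 7 were higher and 11 lower in R than in C, led by Acsl4 (3.97), a ligase for polyunsaturated chains, and by Thrsp (-6.51), Acsl3 (-4.70) and Acad9 (-4.51), the last a mitochondrial dehydrogenase. Against N, 11 were higher and 9 lower, with Acot13, an acyl-CoA thioesterase, at 4.07, Crot, which transfers medium chains to carnitine in peroxisomes, at 3.47, and Oxct1 at 3.08.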

How the data were processed

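The authors deposited one table of TPM values per gene for the whole series, for which the submitters' processing notes name RSEM and the build mm9. Its version and strand setting, the aligner and the annotation were not given in the sources used here. TPM keeps no depth, so the depth is unknown and no count test was possible. Libraries were made from total RNA with a NuGEN low-input kit, per the labels' protocols. The labels list 173 samples, and 172 libraries were in the data. C27 matched 2 titles and was used as 1 C library. From the deposited TPM, log2(TPM + 1) was computed. Each library needed 1000 genes at 1 TPM, which removed 0 libraries. A library was said to be led by markers of a cell type where that list's mean was at least 3 and 0.5 above the next. No difference between classes was tested, since cells are not replicates. The 10 enzymes and all lists were chosen with earlier results of these data known.

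The text names all 10 enzymes. Of the related genes it names those furthest from 0 in each comparison, up to 3 either way, among genes at least 1 apart and seen in at least 20% of libraries of the higher class, not all of them with values in R. Ppara, Etfb and Paox were added after their values were seen. The difference calculation was run on resampled C libraries with a known shift added. That covers the arithmetic only and not how reliable a difference of 1 is. Alternatives were pseudocounts of 0.1 and 10, no filter, rescaled libraries, log2 of mean TPM, a minimum of 3000 genes, other cycling definitions, other limits for apart, and libraries left out. The split of C by leading markers and the removal of C27 were added after the data were seen. Python 3.11.15, numpy 2.4.6, pandas 2.3.3, scipy 1.17.1 and matplotlib 3.10.9 were used.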

Additional observations from a re-analysis of the deposited data

Results flagged for a closer look

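Cpt2 in R1 stood at 1.29 TPM while the other 3 R libraries were listed at 0, a gap that spans the whole range of the class. Where 3 of 4 values are 0, a lone value above 0 gives this gap whatever its size, so the usual rate of about 1 chance finding in 20 groups does not hold here. The value is near the level at which a gene counts as seen.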

How the results depend on the processing

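TPM keeps no depth, zeros are common and no animal is named, so each count below describes these libraries only. No paired analysis was possible because the numbers in the titles only name libraries and no test was run. Counts are of the 10 enzymes, and of the 55 pathway genes (enzymes and related genes past the filter), that were at least 1 apart. As reported, the pathway counts for C minus N were 10 higher and 1 lower, where 9.98% and 4.19% of all genes were. For R minus C they were 8 and 13, where 42.9% of all genes were apart in either direction. For R minus N they were 14 and 11, where 23.8% and 17.5% of all genes were. Cycling minus non-cycling C had 4 and 6, where 15.8% and 4.69% of all genes were. Of 430 single enzyme values under the alternatives, 59 had the opposite sign to the value as reported, 3 of them for differences of at least 1 and 56 for smaller ones. The 430 include the values without the filter, which equal the reported ones by construction and so could not change. In size, 18 of the 430 moved by more than the spread between libraries. The cause of each change was not tested.

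With a pseudocount of 0.1, C minus N had 4 enzymes higher and 19 pathway genes higher and 3 lower (all genes: 20.7% higher, 8.11% lower). Cycling C had 12 pathway genes lower (all genes: 10.1%). With a pseudocount of 10, C minus N had 1 enzyme higher (all genes: 3.73%) and 0 pathway genes lower (all genes: 1.35%). R minus N had 6 pathway genes lower (all genes: 5.06%), and cycling C had 0 enzymes lower (all genes: 1.82%). In rescaled libraries C minus N had 2 pathway genes lower (all genes: 6.70%). It also had 2 lower without the 16 C libraries high in another cell type list (all genes: 4.91%).

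On log2 of mean TPM, C minus N had 1 enzyme lower, 18 pathway genes higher and 9 lower (all genes: 35.5% higher, 17.97% lower). R minus C had 7 enzymes and 34 pathway genes lower (all genes: 62.2%). R minus N had 1 enzyme higher and 8 lower, and 9 pathway genes higher and 31 lower (all genes: 19.3% higher, 49.8% lower). Etfa was reversed there, to -1.12. Cycling C had 1 enzyme higher and 24 pathway genes lower (all genes: 15.99% higher, 33.2% lower). In libraries with at least 3000 genes, C minus N had 5 enzymes higher (all genes: 10.9%). Among these libraries R minus C had 4 enzymes and 19 pathway genes higher (all genes: 25.2%), and R minus N had 5 enzymes higher (all genes: 26.3%).

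With cycling defined by Mki67 or Top2a, 1 enzyme and 2 pathway genes were higher (all genes: 14.9%). Under that definition 3 enzymes were lower (all genes: 4.21%), with Acaa2 at -1.01. Pathway genes higher in cycling libraries numbered 8 among C libraries with a stem cell list mean of at least 4 (all genes: 18.7%). Among those led by stem cell or astrocyte markers they numbered 9, with 1 enzyme higher (all genes: 18.4%).

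With a limit of 0.5, C minus N had 6 enzymes higher and 22 pathway genes higher and 4 lower, R minus C had 2 enzymes higher and 4 lower and 16 pathway genes higher and 21 lower, R minus N had 4 enzymes and 24 pathway genes lower, and cycling C had 9 pathway genes higher and 13 lower. With a limit of 2, C minus N had 0 enzymes higher and 3 pathway genes higher and 0 lower, R minus N had 1 enzyme higher and 6 pathway genes higher and 4 lower, and cycling C had 0 enzymes either way and 1 pathway gene either way. The shares of all genes at these limits are not given, so these counts have no background beside them.

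Without each R library in turn, R minus C had 1 to 3 enzymes higher and 2 to 6 lower, and 10 to 15 pathway genes higher and 14 to 21 lower. Of all genes, 18.97% to 24.4% were higher and 22.3% to 26.1% lower in that comparison. R minus N had 1 to 4 enzymes higher and 2 lower, and 11 to 16 pathway genes higher and 10 to 16 lower. There 20.98% to 26.9% of all genes were higher and 18.1% to 21.9% lower. The R minus N difference of Hadhb ran from -0.52, reversed, without R1 to 3.05 without R2 or R4, and that of Etfa from -0.71, reversed, without R3 to 2.0 without R4.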

Other observations

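Highest single values lay outside C for 4 of the enzymes. Echs1 reached 8274 TPM in N4, a library led by vascular markers, where it made up nearly all of the summed level of the 10 enzymes (8288 TPM). Hadhb reached 4665 TPM in N1, led by oligodendrocyte lineage markers. Etfa reached 3315 TPM in N6 and Cpt2 reached 2193 TPM in N7, both led by vascular markers. Without its highest library, the N mean fell from 429 to 114.9 TPM for Echs1, from 253 to 76.1 TPM for Hadhb and from 87.5 to 3.27 TPM for Cpt2. Among the 27 cycling C libraries Hadha and Hadhb had a rho of 0.42, beside -0.0085 in the non-cycling ones, and only 3 cycling libraries were high in both.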
